A study of Mus musculus with 18 samples.

Results

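In all, 10 markers of lymphocytes and plasma cells were read in 18 mouse livers: Jchain, Mzb1, Cd79a, Cd79b, Cd3e, Cd3g, Cd8a, Nkg7, Gzma and Ccl5. They were chosen by name, and all 10 have a row among the 24394 gene symbols of the count table. Livers fell into 3 groups of 6. The first group came from wild-type mice labelled as controls (control WT) and the second from wild-type mice labelled as bearing pancreatic ductal adenocarcinoma (tumour-bearing WT). The third came from tumour-bearing mice of genotype Alb-Cre+/+ STAT3f/f (tumour-bearing Stat3-deleted). Albumin-Cre acts in hepatocytes, so the Stat3 of lymphocytes is not its target, and no tumour-free group with this genotype is among the samples. The labels name the tumour line PDA.69, derived from the KPC mouse model and described as low in T cells, and they attach that name to the control livers too. The sources used here give no age, sex, tumour site or time of growth. Each liver was sequenced from the 3′ ends of its polyadenylated transcripts, so a count is a 3′ tag and a level is that count over the library's total after scaling by its TMM factor, given as CPM.

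Each marker stands for a step in the work of a lymphocyte. Jchain encodes the chain that joins IgA and IgM into polymers, and Mzb1 an endoplasmic reticulum chaperone that helps plasma cells assemble and secrete antibody. Cd79a and Cd79b encode the paired signalling subunits of the B cell receptor, Cd3e and Cd3g subunits of the T cell receptor complex, and Cd8a the co-receptor of cytotoxic T cells. Nkg7 and Gzma encode a granule membrane protein and a granule protease of cytotoxic T cells and natural killer (NK) cells, and Ccl5 a chemokine that these cells release. The liver hosts resident NK and T cells and delivers polymeric IgA into bile, and Stat3 is the transcription factor through which hepatocytes answer IL-6.

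Jchain carried the largest change among the markers, so its promoter is shown, with that of Nkg7, the only one of the 7 markers with a promoter entry that holds the palindrome TTCNNNGAA, the core that STAT factors are known to bind. Both windows run from 250 bases before to 50 bases after the RefSeq start of the gene (GRCm38.p6, the assembly of the authors' mm10 build), 5′ to 3′ on the gene's strand, at chr5:88527848-88528147 on the minus strand and chr7:43436888-43437187 on the plus strand. Capitals mark matches to 5 motifs searched on both strands: TTCNNNGAA, the octamer ATGCAAAT, the PU.1-type core GAGGAA, the TATA box as TATAAA and the E2A-type E-box CAGGTG.
Jchain: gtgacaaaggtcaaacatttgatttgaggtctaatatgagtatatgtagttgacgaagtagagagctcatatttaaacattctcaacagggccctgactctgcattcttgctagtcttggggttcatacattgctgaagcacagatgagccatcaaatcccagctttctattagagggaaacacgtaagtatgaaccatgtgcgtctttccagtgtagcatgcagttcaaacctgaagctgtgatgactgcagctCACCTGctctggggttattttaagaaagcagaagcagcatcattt
Nkg7: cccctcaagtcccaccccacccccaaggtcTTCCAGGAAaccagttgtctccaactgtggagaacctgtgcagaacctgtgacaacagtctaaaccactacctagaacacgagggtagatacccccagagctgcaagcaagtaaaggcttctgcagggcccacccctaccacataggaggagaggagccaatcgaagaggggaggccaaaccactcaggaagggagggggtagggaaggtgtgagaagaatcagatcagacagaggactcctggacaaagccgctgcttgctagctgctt
The Jchain window holds 1 match, to the reverse of CAGGTG, a motif added after the sequence was seen and found in 20.2% of 32851 mouse promoter windows of this length. The Nkg7 window holds TTCNNNGAA, found in 8.3% of those windows. These matches describe the letters only, and no binding was measured.

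Library totals ran from 5212265 to 9545442 counts, with group medians of 6619448, 8412692 and 8331841. Genes were tested with edgeR's quasi-likelihood test on the 11218 genes that passed a filter on low counts, with Benjamini-Hochberg adjustment over all of them and a threshold of 0.05. Stat3, the targeted gene, was at 112 ± 19.1 CPM in control WT, 213 ± 38.3 in tumour-bearing WT and 118 ± 12.8 in tumour-bearing Stat3-deleted livers (SD, n = 6 each), and the ranges of the last 2 groups did not overlap. Against control WT the Stat3-deleted livers did not pass the test for Stat3 (log2 fold change 0.08, adjusted p = 0.803, edgeR), and the sources used here do not say whether the 3′ tags lie in the deleted part. The comparisons share groups, so they are not independent of each other. Because whole livers were sampled, fewer cells of a type and less RNA per cell cannot be told apart.

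In all, 4 of the 10 markers were too low to read. Cd79a gave 2 counts in all 18 livers, both in tumour-bearing WT replicate 3. The 6 control WT livers had 0 counts of it, which allows up to 0.0719 CPM (3 counts over the group), and the 6 tumour-bearing Stat3-deleted livers had 0 counts, which allows up to 0.061 CPM. Its partner Cd79b gave 262 counts over the same livers. Cd3g gave 60 counts, from 0 to 9 in a liver, and 5 livers had none. Cd3e gave 106 counts, from 1 to 12 in a liver. Its annotated span overlaps an antisense transcript and a second unnamed transcript of GENCODE M21, and the sources used here do not state how the counting treated strand.

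Cd8a gave 145 counts, and a few livers held most of them. Control WT livers 1 to 6 had 3, 6, 28, 2, 0 and 4 counts, tumour-bearing WT livers 1, 7, 17, 7, 2 and 20, and tumour-bearing Stat3-deleted livers 2, 7, 4, 5, 21 and 9. Control WT replicate 3 alone held 28 of the 43 counts of its group. Group sums lay close together for all 3 T cell markers: Cd3e summed to 33, 41 and 32 counts, Cd3g to 22, 19 and 19, and Cd8a to 43, 54 and 48, in the order control WT, tumour-bearing WT and tumour-bearing Stat3-deleted. The exact Poisson intervals of these sums overlap for each marker, for Cd8a from 31.1 to 57.9, 40.6 to 70.5 and 35.4 to 63.6, and they cover counting error only. Sums and intervals are of raw counts, not adjusted for depth. The scaled totals of the groups were 41698650, 44392959 and 49155495 in the same order. A difference between groups in these 4 genes was not detectable at this depth, which does not show that the groups are alike.

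**Figure D1:**
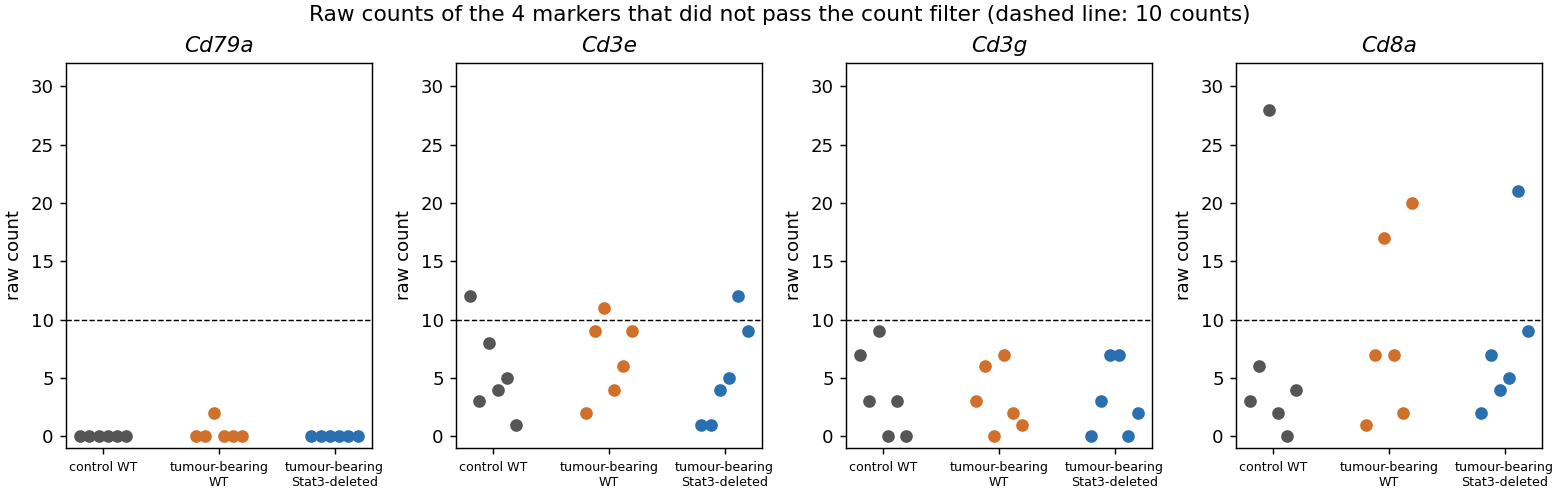
Raw counts of Cd79a, Cd3e, Cd3g and Cd8a in each of 18 livers (vertical axis, linear), by group, with 1 point for each liver in replicate order and a dashed line at 10 counts. Cd79a sits at 0 in 17 livers, and Cd8a passes 10 counts in 4, the highest being control WT replicate 3 at 28.

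The plasma cell markers Jchain and Mzb1 were lower in tumour-bearing Stat3-deleted livers than in either wild-type group. In control WT livers 1 to 6, Jchain stood at 9.78, 27.9, 36.1, 15.2, 2.60 and 7.24 CPM. In tumour-bearing WT livers it stood at 9.59, 18.97, 31.1, 34.9, 6.02 and 26.2 CPM, and in tumour-bearing Stat3-deleted livers at 4.23, 1.503, 1.09, 3.79, 1.98 and 4.78 CPM. The wild-type livers spread widely, by 13.9-fold from lowest to highest in control WT, while every Stat3-deleted liver lay below every tumour-bearing WT liver. Control WT replicate 5, at 2.60 CPM, was the only wild-type liver inside the Stat3-deleted range.

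Mean Jchain levels were 16.5 ± 12.97 CPM in control WT, 21.1 ± 11.7 in tumour-bearing WT and 2.90 ± 1.56 in tumour-bearing Stat3-deleted livers (SD, n = 6 each). Between the last 2 groups the log2 fold change was -2.87 with a standard error of 0.53 and a 95% interval of -3.97 to -1.77, a 7.31-fold lower level (adjusted p = 0.00158, edgeR). Against control WT it was -2.50 with a standard error of 0.53 (adjusted p = 0.01, edgeR), with the level lower than the control mean in 6 of 6 Stat3-deleted livers. Between the wild-type groups the log2 fold change was 0.37, with an interval of -0.61 to 1.35 (adjusted p = 0.755, edgeR). Both lower calls of Jchain held without each library in turn and under each alternative run.

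Mzb1 had fewer counts and a smaller difference. Control WT livers 1 to 6 had 7, 29, 30, 21, 6 and 12 counts, tumour-bearing WT livers 15, 10, 34, 38, 17 and 7, and tumour-bearing Stat3-deleted livers 4, 3, 7, 9, 9 and 5. Levels were 2.60 ± 1.76, 2.66 ± 1.56 and 0.739 ± 0.26 CPM (SD, n = 6 each). The Stat3-deleted livers, at 0.376 to 1.03 CPM, all lay below the tumour-bearing WT livers, at 1.06 to 4.99 CPM, and 2 control WT livers (replicates 1 and 5, at 1.01 and 0.822 CPM) lay inside their range. With unscaled library totals the tumour-bearing groups overlapped, at 0.375 to 1.04 against 0.794 to 4.43 CPM, whereas those of Jchain did not, at 1.04 to 4.78 against 5.71 to 31.0 CPM. No Stat3-deleted liver reached 10 counts, so Mzb1 passed the filter through the wild-type livers alone.

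The log2 fold change of Mzb1 was -1.82 (standard error 0.49) against tumour-bearing WT, with an interval of -2.83 to -0.81 and an adjusted p of 0.0257 (edgeR). Against control WT it was -1.77 (standard error 0.49), with an adjusted p of 0.0392 (edgeR). Leaving out any one of tumour-bearing WT replicates 3 and 4 and Stat3-deleted replicates 1, 2 and 6 ended the first call, with adjusted p from 0.0512 to 0.084 (edgeR). Leaving out any one of control WT replicates 2, 3 and 4 and Stat3-deleted replicates 1, 2, 3, 5 and 6 ended the second, with adjusted p from 0.0652 to 0.0932 (edgeR). Mzb1 lies on the minus strand of chromosome 18. GENCODE M21 holds a protein-coding entry named SPATA24 on that strand, which overlaps Mzb1 and ends within 1 base of the Mzb1 end. Tags from the 3′ ends of the 2 entries may therefore not be told apart. The gene symbol Spata24, chosen for this overlap after its values were seen, was at 4.46 ± 0.909, 9.97 ± 6.27 and 4.16 ± 1.22 CPM in the 3 groups. Its own log2 fold change between the tumour-bearing groups was -1.25 (adjusted p = 0.0327, edgeR). It ended when tumour-bearing WT replicate 3, 4 or 6, or replicate 1, 2, 4 or 6 of the Stat3-deleted livers, was left out, with adjusted p from 0.0644 to 0.0837 (edgeR). It also ended in 4 of 9 other settings, among them the lower run of label numbers alone, at a log2 fold change of -0.68 (adjusted p = 0.311, edgeR). The part of the overlapping entry in the Mzb1 result was not tested.

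**Figure D2:**
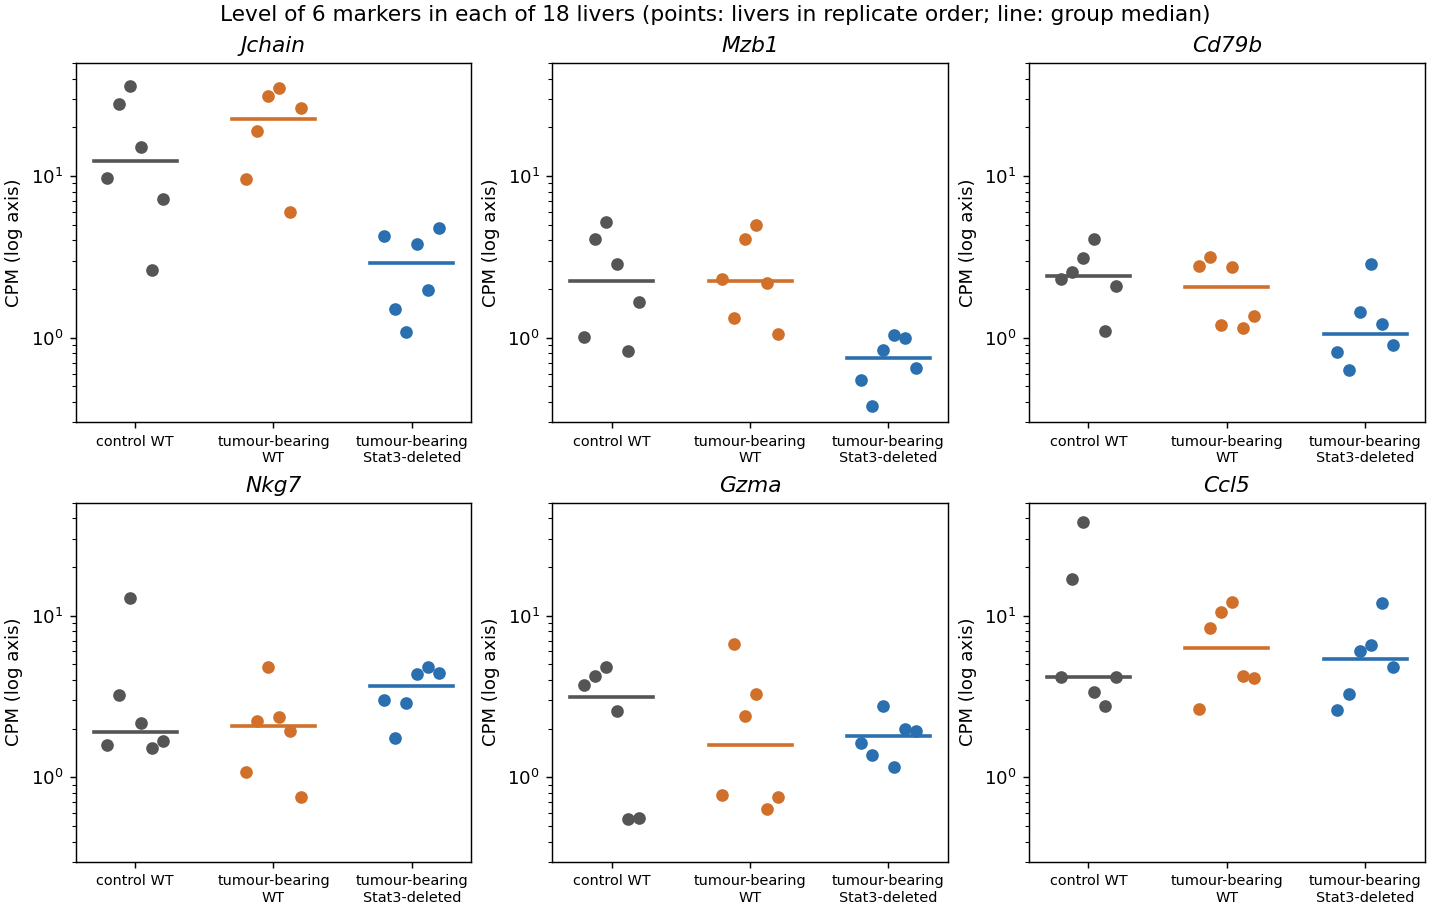
CPM of the 6 markers that passed the filter (log axis) in each of 18 livers, by group, with 1 point for each liver in replicate order and a line at the group median. Jchain in tumour-bearing Stat3-deleted livers lies at 1.09 to 4.78 CPM, below all tumour-bearing WT livers at 6.02 to 34.9, while the Nkg7, Gzma and Ccl5 ranges overlap in all 3 groups.

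Among the 6 tested markers, 2 were called lower between tumour-bearing Stat3-deleted and tumour-bearing WT livers, where 3.23% of all tested genes were called lower and 6.12% were called in either direction. Both of them, Jchain and Mzb1, had ranges of scaled CPM that did not overlap, as did 1.9% of tested genes in that direction. Against control WT, 2 markers were called lower in the Stat3-deleted livers, again Jchain and Mzb1, where 2.66% of all tested genes were called lower and 4.85% in either direction. Between tumour-bearing WT and control WT, 0 of 6 were called by edgeR, 0 had an unadjusted p under 0.05 and DESeq2 also called 0, where 2.25% of all tested genes were called. With 6 tested markers, of which Mzb1 passed through its high groups, these counts are a description.

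**Figure D3:**
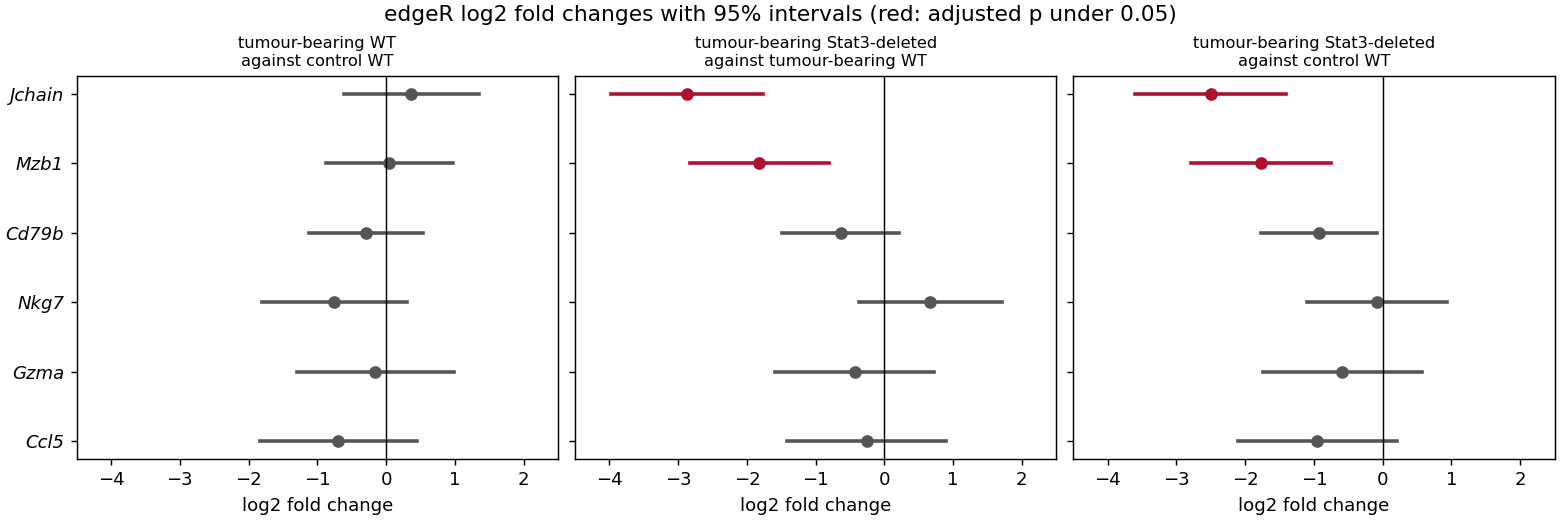
Log2 fold changes of the 6 tested markers (points) with their 95% intervals (lines) in the 3 comparisons, red where the adjusted p is under 0.05. Jchain and Mzb1 are red in both comparisons of the Stat3-deleted livers, at -2.87 and -1.82 and at -2.50 and -1.77, and every interval in the comparison of the wild-type groups spans 0.

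The other genes of the plasma cell programme did not pass the test. Of 15 listed genes 10 were tested, and 0 were called in any of the 3 comparisons, with a median log2 fold change of -0.12 between the tumour-bearing groups against -0.03 over all tested genes. Most of the listed level comes from genes that hepatocytes also express, such as the proteoglycan Sdc1, at 151 ± 56.3 CPM in tumour-bearing WT and 137 ± 17.7 in tumour-bearing Stat3-deleted livers (SD, n = 6), and Edem1, a factor of endoplasmic reticulum quality control, at 83.9 ± 10.3 and 75.9 ± 6.61. Derl3 and Pou2af1 were tested, with log2 fold changes of 0.06 and 0.099 between the tumour-bearing groups (adjusted p = 0.973 and 0.954, edgeR). For Stat3-deleted against control WT livers they were -0.918 and 0.959 (adjusted p = 0.443 and 0.471, edgeR). Some genes more restricted to plasma cells were too low to test. Tnfrsf17, the survival receptor BCMA, reached at most 4 counts in a wild-type liver and had 0 in all 6 Stat3-deleted livers, and Irf4, a transcription factor of plasma cell differentiation, reached at most 13 counts in any liver. The immunoglobulin constant genes were not analysed here.

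Cd79b, the B cell receptor subunit that could be read, did not pass the test. Control WT livers 1 to 6 stood at 2.30, 2.54, 3.11, 4.06, 1.10 and 2.09 CPM, tumour-bearing WT livers at 2.78, 3.16, 1.20, 2.76, 1.15 and 1.36, and tumour-bearing Stat3-deleted livers at 0.819, 0.626, 1.45, 2.87, 1.21 and 0.905. All 3 ranges overlapped, and 1 Stat3-deleted liver, replicate 4, stood above the others of its group. The log2 fold change was -0.64 against tumour-bearing WT, with an interval of -1.49 to 0.22 (adjusted p = 0.42, edgeR). Against control WT it was -0.93, with an interval of -1.77 to -0.08 (unadjusted p = 0.0335, adjusted p = 0.194, edgeR), and limma voom with quality weights gave -1.27 and an adjusted p of 0.03.

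Whether Jchain and Mzb1 differed more than Cd79b was tested on the log2 ratio of each to Cd79b in every liver, a test chosen after the values were seen. The Jchain to Cd79b ratio was lower by 2.10 log2 units in tumour-bearing Stat3-deleted than in tumour-bearing WT livers (exact permutation test, two-sided, p = 0.013, adjusted over 4 ratios 0.052), and 6 of 6 Stat3-deleted livers lay below the tumour-bearing WT mean. The Mzb1 to Cd79b ratio was lower by 0.948 log2 units (exact permutation p = 0.0758, adjusted 0.101). Against control WT the differences were -1.23 for Jchain (exact permutation p = 0.0671, adjusted 0.101) and -0.52 for Mzb1 (exact permutation p = 0.165). After adjustment, none of the 4 ratios passed 0.05.

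Other B cell genes were mostly too low to test. Of 17 listed genes 4 were tested (Cd37, Cr2, Bank1 and Cd24a) and 0 were called in any comparison. Between the tumour-bearing groups all 4 log2 fold changes were below 0, with a median of -0.90 against -0.03 over all tested genes. Cd24a, a surface glycoprotein of B cell precursors that other cells also carry, was at 4.98 ± 1.96 CPM in tumour-bearing WT and 2.37 ± 0.64 in tumour-bearing Stat3-deleted livers (SD, n = 6; adjusted p = 0.0845, edgeR). Bank1, a B cell scaffold protein, was at 3.96 ± 1.41 and 3.40 ± 1.10 CPM. All 10 genes of B cell receptor signalling were tested and 0 were called in any comparison.

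The cytotoxic markers overlapped between groups. Nkg7 stood at 1.58, 3.24, 12.8, 2.17, 1.51 and 1.67 CPM in control WT livers 1 to 6, at 1.08, 2.24, 4.82, 2.36, 1.92 and 0.757 in tumour-bearing WT and at 3.00, 1.75, 2.89, 4.37, 4.83 and 4.40 in tumour-bearing Stat3-deleted livers. Its log2 fold change between the tumour-bearing groups was 0.67, with an interval of -0.38 to 1.71 (adjusted p = 0.5, edgeR), and 5 of 6 Stat3-deleted livers lay above the tumour-bearing WT mean. One liver, control WT replicate 3, set the mean of its group. The log2 fold change of Nkg7 between Stat3-deleted and control WT livers was -0.08 with that liver and 0.78 without it, and neither passed the test.

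Gzma split the wild-type livers within each group. In control WT, replicates 1 to 4 stood at 3.74, 4.23, 4.84 and 2.57 CPM and replicates 5 and 6 at 0.548 and 0.557. In tumour-bearing WT, replicates 2 to 4 stood at 6.72, 2.41 and 3.28 CPM and replicates 1, 5 and 6 at 0.773, 0.640 and 0.757. Stat3-deleted livers lay between, at 1.15 to 2.77 CPM. The log2 fold changes were -0.15, -0.43 and -0.59 in the comparisons of tumour-bearing WT with control WT, Stat3-deleted with tumour-bearing WT and Stat3-deleted with control WT, with adjusted p of 0.928, 0.727 and 0.594 (edgeR). Control WT livers also differed by the run of their label numbers, which set replicates 1 to 3 of both wild-type groups and all Stat3-deleted livers apart from wild-type replicates 4 to 6. Gzma was at 3.74 to 4.84 CPM in control WT of the lower run and at 0.548 to 2.57 in the higher run, and the sources used here do not say what the runs stand for.

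Ccl5 was the one chemokine among the markers and reached at least 17 counts in every liver. It stood at 4.17, 16.9, 37.9, 3.39, 2.74 and 4.18 CPM in control WT livers 1 to 6, at 2.63, 8.43, 10.5, 12.2, 4.23 and 4.09 in tumour-bearing WT and at 2.59, 3.26, 6.03, 6.55, 11.97 and 4.78 in tumour-bearing Stat3-deleted livers. All ranges overlapped, and control WT replicates 2 and 3 were the 2 highest livers. The log2 fold change between the tumour-bearing groups was -0.26, with an interval of -1.41 to 0.90 (adjusted p = 0.851, edgeR). Between tumour-bearing WT and control WT it was -0.69, and 0.14 without control WT replicate 3. Within the higher label-number run that difference was 0.99, and none of these values passed the test.

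Within the lower label-number run alone, which holds 3 livers of each wild-type group and all 6 Stat3-deleted livers, Jchain was lower by log2 fold changes of -2.78 against tumour-bearing WT (adjusted p = 0.000797, edgeR) and -3.08 against control WT (adjusted p = 0.00243, edgeR). Mzb1 was lower by -1.76 (adjusted p = 0.0433, edgeR) and -2.16 (adjusted p = 0.0359, edgeR). That fit was chosen after seeing the data, and Mzb1, with at most 9 counts in a Stat3-deleted liver, entered it through the wild-type livers alone.

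Genes of T and NK cells beyond the markers showed no calls. Of 20 measured T cell genes 6 passed the filter, of 12 T cell receptor signalling genes 7, and of 21 NK and cytotoxic genes 7, and 0 were called in any comparison. Cd3d, another T cell receptor subunit, was the one readable CD3 chain in those lists, at 4.48 ± 4.95, 4.08 ± 2.44 and 2.96 ± 0.669 CPM (SD, n = 6 each) in control WT, tumour-bearing WT and tumour-bearing Stat3-deleted livers. Its log2 fold change between the tumour-bearing groups was -0.47 (adjusted p = 0.647, edgeR). The medians of the NK and cytotoxic list were 0.07, 0.27 and 0.28 in the 3 comparisons, against 0.00, -0.03 and -0.01 over all tested genes.

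**Figure D4:**
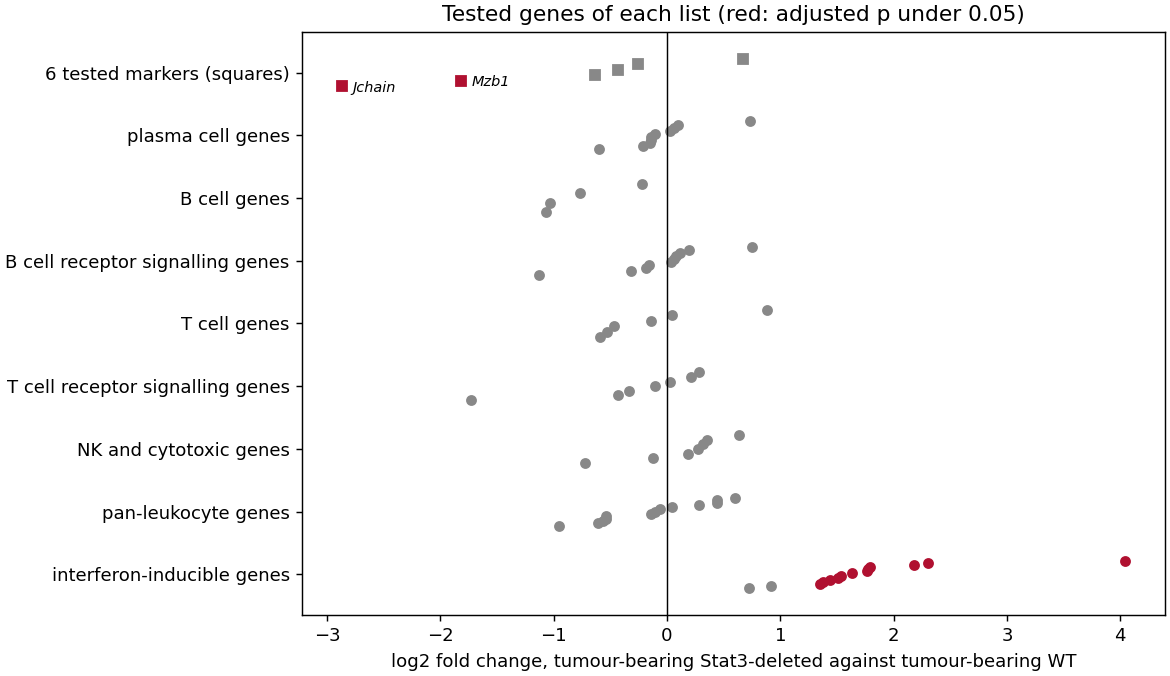
Log2 fold change (horizontal axis) between tumour-bearing Stat3-deleted and tumour-bearing WT livers of each tested gene in 8 gene lists (circles) and of the 6 tested markers (squares), red where the adjusted p is under 0.05. Jchain and Mzb1 lie at -2.87 and -1.82, the plasma cell and B cell lists hold no called gene, and 12 of 14 interferon-inducible genes are red to the right of 0.

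Genes listed as markers of other cells differed between the same groups, and their part in the Jchain and Mzb1 results was not tested. Of 6 tested neutrophil markers 6 rose from control WT to tumour-bearing WT, where 1.76% of tested genes were called higher, and 5 fell from the tumour-bearing WT to the Stat3-deleted livers, where 3.23% were called lower. Some passed the filter through tumour-bearing WT alone, such as Prtn3, a granule protease, with at most 9 counts in a control WT liver and 10 in a Stat3-deleted one, and 6 more were too low to test, so these counts are a description. The summed level of the 12 neutrophil markers in the table was 23.8 to 64.3 CPM in control WT livers. It was 293 to 1150 in the tumour-bearing WT livers and 39.8 to 109 in the Stat3-deleted ones. The largest part of that sum in tumour-bearing WT was Lcn2, at means of 6.77, 414 and 3.01 CPM in the 3 groups. Which cells made the Lcn2 RNA was not tested in these whole livers. Csf3r, too low to test, was at means of 0.262, 0.264 and 0.412 CPM in the same order. Cxcr2, Mpo, Elane, Camp and Ltf, also too low to test, were highest in tumour-bearing WT, at means of 0.838 to 2.46 CPM. S100a8 was at means of 14.2, 90.2 and 29.0 CPM. Of 4 tested plasmacytoid dendritic cell markers 1 fell between the tumour-bearing groups, Ly6d, a surface protein also of B cell precursors, from 12.4 ± 9.41 to 1.56 ± 0.609 CPM (SD, n = 6; log2 fold change -2.98, adjusted p = 0.000241, edgeR). Another, Bst2, an interferon-inducible surface protein, rose by 1.01 log2 units (adjusted p = 0.0188, edgeR), which missed the threshold when tumour-bearing WT replicate 4, or replicate 5 of the Stat3-deleted livers, was left out, at adjusted p of 0.0507 and 0.0526 (edgeR). Summed levels of that list ran from 68 to 133, 34.5 to 96.8 and 84.4 to 177 CPM in control WT, tumour-bearing WT and Stat3-deleted livers. Most of that sum was Bst2, at means of 88.0, 63.2 and 127 CPM in the same order.

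Of 5 tested ductal and tumour epithelial markers all were below 0 between the tumour-bearing groups. Of these, 2 were called lower, where 3.23% of all tested genes were called lower. Sox9, a transcription factor of bile duct cells, was at 62.7 ± 27.01 CPM in the wild-type and 24.6 ± 4.27 in the Stat3-deleted tumour-bearing livers (SD, n = 6; log2 fold change -1.35, adjusted p = 0.000883, edgeR), and Spp1, the secreted protein osteopontin, at 18.1 ± 13.9 and 4.34 ± 0.999 (log2 fold change -2.06, adjusted p = 0.00139, edgeR). The 8 markers of that list summed to between 34.5 and 61 CPM in control WT livers, between 48.3 and 161 in the tumour-bearing WT ones and between 31.5 and 53.9 in the Stat3-deleted ones. Against control WT, 3 of 10 Kupffer cell markers (C1qc, Vsig4 and Cd5l) were called higher in the Stat3-deleted livers. So were 2 of 8 liver endothelial markers (Clec4g and Stab2), where 2.19% of all tested genes were called higher. Each of these 5 calls ended in 3 to 7 of 18 fits that left out 1 library. All 5 ended without any one of control WT replicate 4 and Stat3-deleted replicates 2 and 5. Between tumour-bearing WT and control WT, 1 of the 10 Kupffer cell markers was called higher, where 1.76% of all tested genes were. That marker was Vsig4 (log2 fold change 0.947, adjusted p = 0.0237, edgeR). The part of these cells in the Jchain and Mzb1 results was not tested.

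Of 14 interferon-inducible genes 12 were higher in the Stat3-deleted livers than in tumour-bearing WT, where 2.89% of tested genes were called higher, and 11 than in control WT, where 2.19% were, and 0 were called between the wild-type groups. Igtp, an interferon-inducible GTPase, was at 35.5 ± 32.03, 29.1 ± 5.74 and 480 ± 292 CPM (SD, n = 6 each) in control WT, tumour-bearing WT and tumour-bearing Stat3-deleted livers, a log2 fold change of 4.04 between the tumour-bearing groups (adjusted p = 1.72e-05, edgeR). The cytotoxic markers Nkg7, Gzma and Ccl5 did not pass the test in those comparisons. Of 13 tested pan-leukocyte genes 0 were called between the tumour-bearing groups, and the summed level of the 14 listed was 204 to 311 CPM in the tumour-bearing WT livers and 238 to 342 in the Stat3-deleted ones. Between the wild-type groups 0 were called. Against control WT 1 was called higher in the Stat3-deleted livers, where 2.19% of tested genes were. That gene was Laptm5, at 23.8 ± 9.15 CPM in control WT and 42.2 ± 7.20 in Stat3-deleted livers (SD, n = 6; log2 fold change 0.83, adjusted p = 0.0291, edgeR). The Laptm5 call ended in 6 of 18 fits that left out 1 library. The hepatocyte markers summed to between 73300 and 146000 CPM in tumour-bearing WT livers and between 113000 and 127000 in Stat3-deleted ones, and all 8 were tested, with 1 called higher.

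Across livers, the tested markers deviated together from their group means, whether or not they share a function. As a description over 18 livers, r was 0.764 for Mzb1 and Nkg7, 0.742 for Mzb1 and Ccl5 and 0.618 for Jchain and Ccl5, and the lowest r of the 15 pairs was 0.263, for Cd79b and Nkg7. No r over unrelated gene pairs is given beside them, and they were not computed again without control WT replicate 3. That liver lay above its group mean by 2.13 log2 units for Nkg7, 2.40 for Ccl5, 1.57 for Jchain and 1.17 for Mzb1. Of 7 pairs planned for a shared function, 3 were tested. For Nkg7 and Ccl5 Pearson's r was 0.849 (permutation p = 0.00018, adjusted over 3 pairs 0.00054) and Spearman's rho 0.783 (permutation p = 0.00054) over 18 livers, and r was 0.759 without the 2 livers farthest from the median of Nkg7. The relation held within control WT, tumour-bearing WT and tumour-bearing Stat3-deleted livers, at r of 0.928, 0.778 and 0.679, and within the lower and higher label-number runs, at 0.863 and 0.659. For Jchain and Mzb1 r was 0.59 (permutation p = 0.0304, adjusted 0.0456) and rho 0.554 (permutation p = 0.0418, adjusted 0.0432), with r of 0.52 without the 2 farthest livers. That relation was closest in control WT, at r of 0.924, and r was 0.286 in tumour-bearing WT and 0.03 in tumour-bearing Stat3-deleted livers, where counts of Mzb1 were 3 to 9. For Nkg7 and Gzma r was 0.544 (permutation p = 0.0504, adjusted 0.0504) and rho 0.509 (permutation p = 0.0432, adjusted 0.0432). The other 4 planned pairs were not computed, because a partner did not pass the filter or was not in the table.

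**Figure D5:**
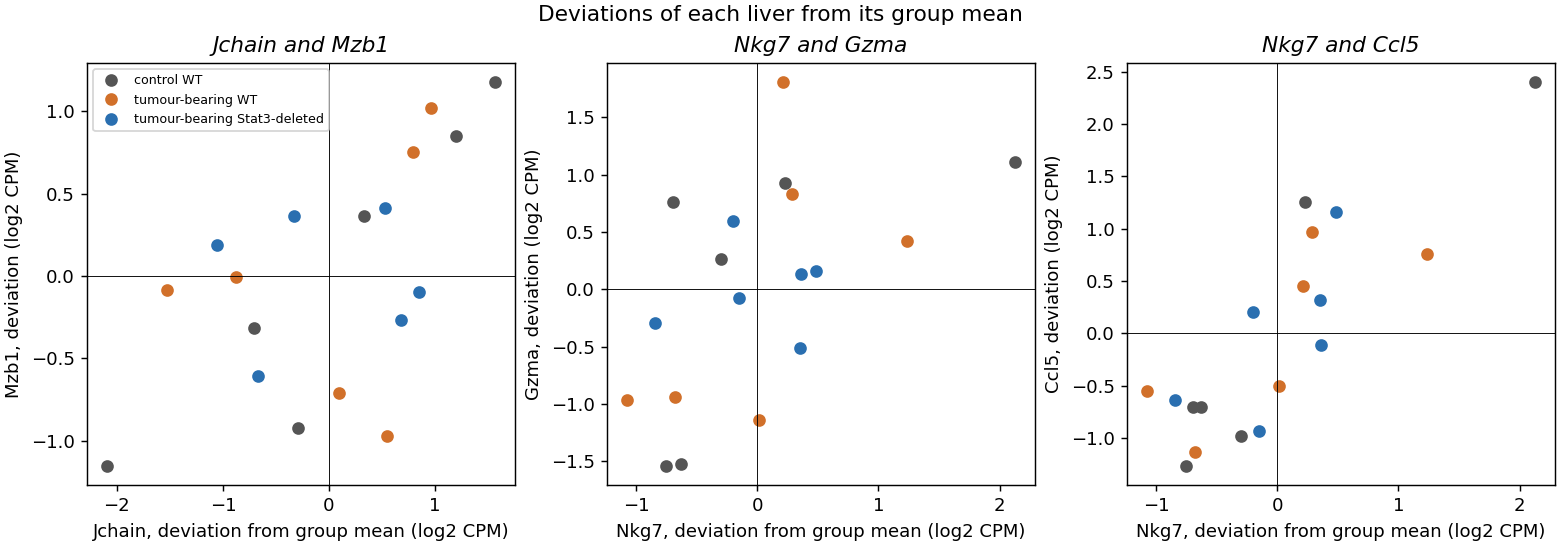
Deviation of each liver from its group mean (log2 CPM, prior count 2) for Jchain and Mzb1, Nkg7 and Gzma, and Nkg7 and Ccl5, with 1 point for each of 18 livers coloured by group. Nkg7 and Ccl5 rise together over the 18 livers (r = 0.849), with a wider scatter for the other pairs (r = 0.59 and 0.544).

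The tested genes whose deviations were most like each marker, over the same 18 livers and out of 11218, are given as a description, since livers share their library. For Nkg7 they were the antigen presentation genes H2-Eb1, Cd74 and H2-Ab1, at r of 0.916, 0.903 and 0.901, and for Ccl5 they were H2-DMb1, H2-Eb1 and Cd300a, at 0.914, 0.9 and 0.887. For Jchain they were Tcf19, Dqx1 and Id1, at 0.822, 0.814 and 0.801, and for Mzb1 Batf3, Tcf3 and P2rx7, at 0.845, 0.825 and 0.819. For Cd79b they were Kdsr, Tenm3 and Ppp1r16b, at 0.829, 0.804 and 0.803, and for Gzma Lyz2, Ackr1 and Ggps1, at 0.858, 0.835 and 0.834. Neither Jchain nor Mzb1 was among the 3 nearest genes of the other.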

How the data were processed

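The authors deposited 1 table of raw read counts per gene symbol for 18 mouse livers, made from 3′ tag libraries (QuantSeq FWD, per the labels' protocols) with STAR and mm10 named in the submitters' processing notes. The sources used here name no counter, annotation or strand setting. Of 24421 rows, 27 had symbols turned into dates by a spreadsheet (0.103 to 0.166% of a library) and were left out. The number of columns of no sample was 0.

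edgeR 4.0.16 (R 4.3.3) fitted all 18 libraries with 1 coefficient per group, TMM factors and filterByExpr (minimum count 10), which kept 11218 genes. The 95% intervals are from that fit. CPM are counts over library totals multiplied by TMM factors (0.75 to 1.11), and correlations used log2 CPM with a prior count of 2 and 100000 permutations. The fit was tested on simulated data. Alternatives were DESeq2 1.42.0, limma 3.58.1 voom, other scaling and filters, 2 groups alone, blocks, label-number runs and leaving out each library. The labels do not say that replicates are separate mice, so p-values measure the spread between these samples, which may be technical.

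The text names all 10 markers and the 3 tested genes most like each marker. It also names up to 4 called genes of a list or, with none called, up to 2 tested genes of the highest level. Genes named outside that rule (Stat3, Spata24, Tnfrsf17, Derl3, Pou2af1, Irf4, Cd37 and Cr2) were chosen after their values were seen. Markers and 18 lists (235 genes) were chosen with earlier results of these data known. The result of 1 list is not reported here. Promoter windows are from RefSeq (GRCm38.p6), given for 7 of 10 markers. Jchain lies on chromosome 5, Cd79a and Nkg7 on 7, Cd79b and Ccl5 on 11, Cd3e and Cd3g on 9, Cd8a on 6, Gzma on 13 and Mzb1 on 18.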

Additional observations from a re-analysis of the deposited data

Results flagged for a closer look

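Of 28 groups of 6 livers checked for a single liver far from the others, 4 held one. The check flags about 1 in 20 by chance when values are normally distributed. Levels from low counts are not, so the number flagged cannot be set against that rate and is a description. Nkg7 in control WT replicate 3 was at 12.8 CPM (74 counts), with the next liver at 3.24. Cd8a in the same liver was at 4.84 CPM (28 counts), with the next at 0.846. That liver was also the highest of control WT for Jchain, Mzb1, Cd3g, Gzma and Ccl5, and the second for Cd79b and Cd3e. Cd79b in tumour-bearing Stat3-deleted replicate 4 was at 2.87 CPM (25 counts), with the next at 1.45. Cd79a in tumour-bearing WT replicate 3 was at 0.241 CPM, which is 2 counts, with the other livers at 0. With the others at 0, any count at all would have been flagged.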

How the results depend on the processing

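Jchain stayed called lower in both comparisons of the Stat3-deleted livers under every alternative run and without each library, with log2 fold changes of -3.08 to -2.13. Fitted with 2 groups alone, Mzb1 did not pass the filter, which left 1 marker called in each of those comparisons. Without each replicate in turn, 1 to 2 markers were called in both and 0 to 0 between the wild-type groups.

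The counts of all genes called moved more. For tumour-bearing WT against control WT, 252 became 450 with DESeq2, 128 with 2 groups alone, 126 with a block for the run of label numbers, 38 and 50 within the lower and higher run, and 132 to 462 without each replicate. Between the tumour-bearing groups, 686 became 1097 with limma voom, 1063 in the lower run alone (chosen after seeing the data), and 469 to 906 without each replicate. For Stat3-deleted against control WT, 544 became 865 with DESeq2, 894 with 2 groups alone, 1318 with limma voom, 280 in the lower run alone, and 258 to 783 without each replicate. The cause was not tested.

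Scaling by library totals in place of TMM moved all genes' median by -0.192, 0.068 and -0.121 log2 units, and it moved the share of calls that were higher from 78.2% to 39.4%, 47.2% to 61.1% and 45.2% to 27.2% in the 3 comparisons.

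Values that changed sign belonged to comparisons in which that marker did not pass the test. Between the wild-type groups, Jchain was -0.30 and Mzb1 -0.395 within the lower run, Mzb1 -0.16 by library totals and Ccl5 0.99 within the higher run. Without 1 library, Mzb1 ranged from -0.227 to 0.331 there, Nkg7 from -1.148 to 0.106, Gzma from -0.795 to 0.051 and Ccl5 from -0.922 to 0.145. Between the tumour-bearing groups Gzma ranged from -0.631 to 0.189, the latter without tumour-bearing WT replicate 2. For Stat3-deleted against control WT, Nkg7 was 0.104 with limma voom and -0.252 to 0.779 without 1 library, the latter without control WT replicate 3. The Nkg7 and Gzma correlation passed 0.05 with a prior count of 0.5 (r = 0.551, adjusted p = 0.0483) and with library totals (r = 0.577, adjusted p = 0.0357), by permutation over 18 livers.

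With the replicate number as a block, Nkg7 was 0.358 for Stat3-deleted against control WT. Jchain was -2.64 and -2.21 and Mzb1 -1.72 and -1.68 in the 2 comparisons of the Stat3-deleted livers, and no marker's call changed. Same-numbered livers of different groups correlated at -0.126 to 0.309. Differently numbered livers were not compared, so these values cannot show whether the numbers pair livers.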
